A study of Zea mays with 8 samples.

Results

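The genes described here are 4 genes of starch synthesis in maize (Zea mays): GBSSIIa (GRMZM2G008263), AGPLS3 (GRMZM2G144002), bt2 (GRMZM2G068506) and sh2 (GRMZM2G429899). They were taken by gene ID from 28667 genes listed in the ovary or the leaf table of the study, and all 4 are listed in both tables. RNA sequencing of polyadenylated RNA was done on the inbred line B73, grown in a greenhouse until silk emergence and hand pollinated. The 4 groups are ovaries of drought-stressed plants, ovaries of well watered plants, the basal leaf meristem of drought-stressed plants and the basal leaf meristem of well watered plants. All were sampled 24 hours after pollination, and each has 2 libraries. The stressed plants had their irrigation withheld for a few days before pollination. Ovary material is called ovaries or cob in the series description, so the share of cob tissue is not known, and the meristem came from the youngest leaves. The labels do not say whether the replicates came from separate plants, so the spread that the p-values measure may be technical.

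Starch is built in plastids from ADP-glucose. ADP-glucose pyrophosphorylase makes this sugar nucleotide from glucose 1-phosphate and ATP, and the enzyme is assembled from large and small subunits encoded by small gene families. In maize, sh2 (shrunken2) encodes the large subunit and bt2 (brittle2) the small subunit of the form that fills the endosperm, and loss of either gives collapsed, sugary kernels. AGPLS3 names a further large subunit gene. Granule-bound starch synthase elongates amylose within the granule. The endosperm and pollen use the form encoded by waxy1 (wx1), and GBSSIIa belongs to the form found in other tissues. Starch held in the ovary wall and pedicel is a carbon reserve of the young maize floret, and it is known to be depleted when plants lose water around pollination.

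Values are FPKM, fragments scaled to gene model length and to the mapped fragments of a library, so levels of different genes can be set side by side within a library. The ovary and leaf tables may have been normalized separately, so levels across them are a description. Whole reads cannot be recovered from these estimates, which reach down to 0.000119 FPKM, so the depth of each library and the counting error of each value are unknown. Library sums of FPKM ran from 661161 to 843595, leaving out AC198871.3_FG002 and AC195320.3_FG003, which raised the sum of well watered ovary replicate 2 to 9212839. Floral MADS-box genes marked the ovary: all 8 are listed there, with a summed level of 589 and 737 FPKM under drought and 824 and 940 FPKM when well watered, and 2 are listed in the leaf, at 1.56 to 5.50 FPKM in sum. The 8 leaf markers, mostly genes of photosynthesis, summed to 9033 to 12080 FPKM in the leaf libraries.

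In the drought-stressed ovary, transcripts of GBSSIIa, AGPLS3 and bt2 were lower than in the well watered ovary. The fall was 13.9-fold in mean FPKM for GBSSIIa, 11.4-fold for AGPLS3 and 3.28-fold for bt2. The fourth gene, sh2, was above 4.37% to 11.3% of the listed genes in the ovary libraries, and its mean level under drought was 0.362 of that in well watered ovaries. In the leaf meristem limma called no drought change in GBSSIIa, bt2 or sh2, and AGPLS3 stood below 0.5 FPKM in all 4 libraries. Each tissue was tested with limma on log2(FPKM + 1), keeping genes that averaged 1 FPKM or more in its table. Calls needed an adjusted p under 0.05 (Benjamini-Hochberg). Under this rule 29.5% of the 23770 genes tested in the ovary were called lower under drought and 23.6% higher. Under quantile normalization the larger number was the higher one, with 6626 genes higher and 6234 lower, against 5614 and 7004 with FPKM as deposited. In the leaf 0.906% of 22418 genes were called lower and 2.35% higher. A further limit is that an exact permutation test of 2 libraries against 2 cannot give a two-sided p below 0.333.

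**Figure D1:**
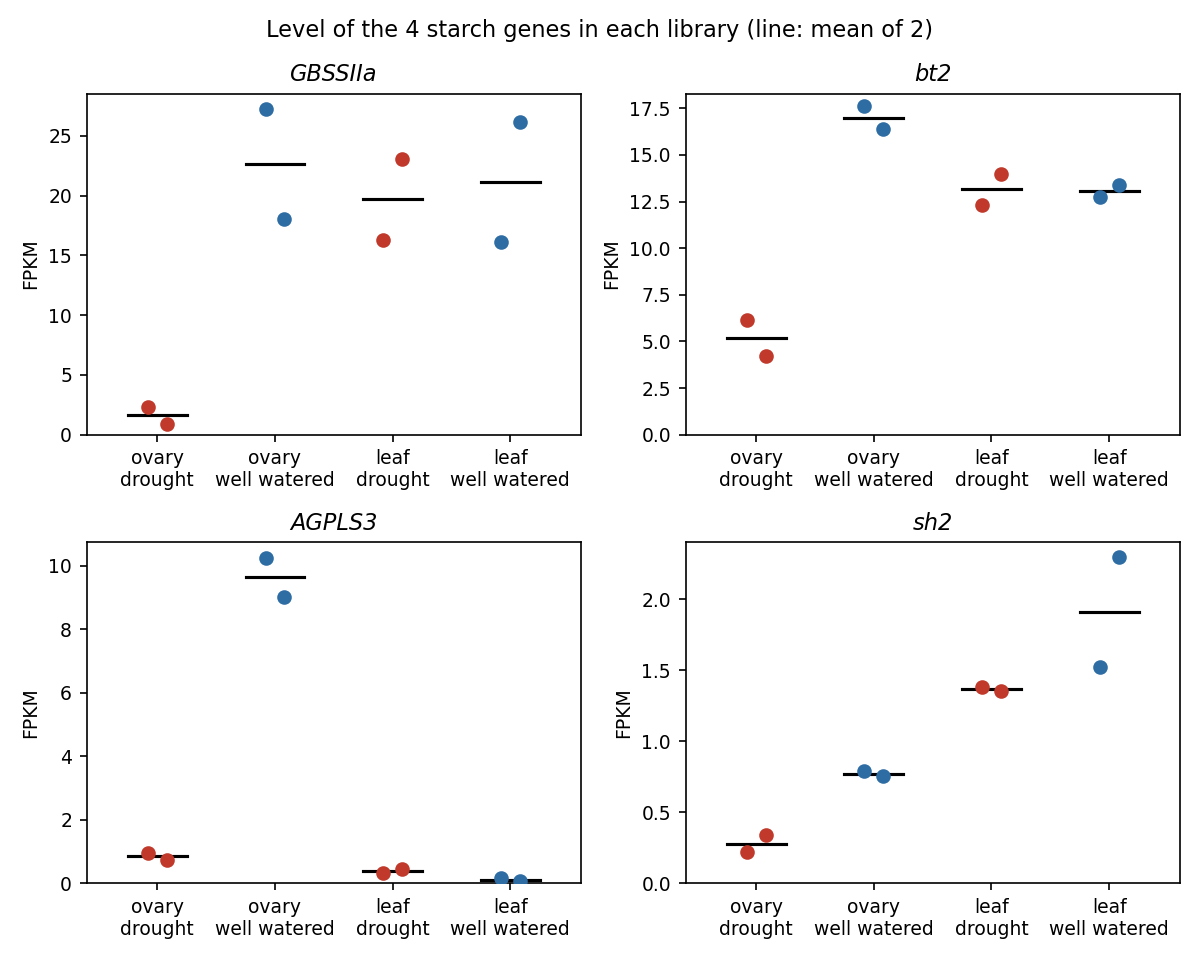
Level of each gene in FPKM (vertical axes, each from 0) in the 8 libraries, by tissue and watering; red points are drought libraries, blue points well watered libraries, and the line is the mean of 2. The drought-stressed ovary is lowest for GBSSIIa, bt2 and sh2, and AGPLS3 reaches 10.2 and 9.03 FPKM in the well watered ovary against at most 0.964 FPKM elsewhere.

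GBSSIIa had 2.33 and 0.920 FPKM in drought-stressed ovaries, against 27.2 and 18.0 FPKM in well watered ovaries. The groups did not overlap, and the lower well watered library was still several times the higher drought library. Both drought libraries lay below both well watered ones for 41.1% of all genes listed in the ovary. The log2(FPKM + 1) change was -3.20 ± 0.34 (SE, n = 2 per condition, limma adjusted p = 0.000842), and 2.60% of tested genes had a more negative change. In well watered ovaries GBSSIIa lay above 76.7% and 67.4% of the listed genes, whereas under drought it lay above 27.0% and 14.3%. The adjusted p rose to between 0.0227 and 0.0374 with any 1 of the 4 ovary libraries left out, and the log2 change then ranged from -3.59 to -2.80.

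In the leaf meristem GBSSIIa had 16.3 and 23.1 FPKM under drought, against 16.2 and 26.2 FPKM in well watered plants. The groups overlapped, with replicate 2 the higher library in each. The log2 change was -0.08 ± 0.30 (SE, n = 2 per condition, limma adjusted p = 0.888), with a 95% confidence interval of -0.87 to 0.71. In well watered plants the level was 22.6 ± 6.50 FPKM in the ovary and 21.2 ± 7.11 FPKM in the leaf (SD, n = 2 each), and these ranges overlapped. Under drought the ovary mean was 0.0825 of the leaf mean.

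AGPLS3 had 0.964 and 0.728 FPKM in drought-stressed ovaries, against 10.2 and 9.03 FPKM in well watered ovaries. The 2 replicates of each condition lay close together and far from the other condition. Drought was the lower condition, as for 41.1% of all genes listed in the ovary, and 4.5% of tested genes had a more negative log2 change. The log2(FPKM + 1) change was -2.53 ± 0.19 (SE, n = 2 per condition, limma adjusted p = 0.000303), which understates the fall in FPKM because the drought values are below the pseudocount of 1 FPKM. With a pseudocount of 0.01 FPKM the log2 change was -3.50. AGPLS3 passed the filter through its well watered level alone, since its drought mean was 0.846 ± 0.167 FPKM (SD, n = 2).

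In the leaf meristem AGPLS3 was listed at 0.321 and 0.461 FPKM under drought, against 0.149 and 0.0531 FPKM in well watered plants. Both drought libraries were above both well watered libraries, a pattern shown by 23.5% of all genes listed in the leaf. At most 7.20% of listed leaf genes had a lower level than AGPLS3 in any library, so its levels there are at the floor of the table. It did not pass the filter. With no filter the limma estimate was 0.34 ± 0.12 on the log2 scale (SE, n = 2 per condition, adjusted p = 0.230). All its leaf values are below the pseudocount of 1 FPKM, which shrinks this estimate. Of the 4 genes AGPLS3 had the widest gap between well watered tissues, with an ovary mean 95.3 times the leaf mean.

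The small subunit gene bt2 had 6.13 and 4.24 FPKM in drought-stressed ovaries, against 17.6 and 16.4 FPKM in well watered ovaries. The groups did not overlap, with drought the lower, as for 41.1% of all genes listed in the ovary. The log2(FPKM + 1) change was -1.56 ± 0.21 (SE, n = 2 per condition, limma adjusted p = 0.00212), and 11.3% of tested genes changed more negatively. The call rests on both well watered libraries, since the adjusted p was 0.0504 without well watered replicate 1 and 0.0511 without well watered replicate 2.

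In the leaf bt2 was at 12.3 and 14.0 FPKM under drought, against 12.7 and 13.4 FPKM in well watered plants. The drought libraries bracketed the well watered ones. The log2 change was 0.01 ± 0.13 (SE, n = 2 per condition, limma adjusted p = 0.974). Its 95% confidence interval, -0.34 to 0.35, is the narrowest among the 3 of these genes tested in the leaf. The well watered ovary was 1.30 times the well watered leaf in mean FPKM, and under drought the ovary was 0.394 of the leaf.

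The endosperm large subunit gene sh2 was at 0.218 and 0.339 FPKM in drought-stressed ovaries, against 0.787 and 0.753 FPKM in well watered ovaries. Both drought libraries were lower, as they were for 41.1% of all genes listed in the ovary. In the ovary libraries sh2 stood above 4.37% to 11.3% of listed genes, near the floor of the table. With a mean under 1 FPKM there it did not pass the filter. With no filter the limma estimate was -0.47 ± 0.13 on the log2 scale (SE, n = 2 per condition, adjusted p = 0.0275). It understates the fall in FPKM, since all ovary values are below the pseudocount of 1 FPKM.

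In the leaf sh2 was at 1.38 and 1.35 FPKM under drought, against 1.52 and 2.30 FPKM in well watered plants. The drought libraries were both lower, which held for 33.4% of genes listed in the leaf, and well watered replicate 2 stood apart from the other 3 libraries. The log2 change was -0.29 ± 0.21 (SE, n = 2 per condition, limma adjusted p = 0.437), with a 95% confidence interval of -0.84 to 0.26. In both conditions sh2 was higher in leaf than in ovary, with the ovary at 0.204 of the leaf mean under drought and at 0.403 of it when well watered.

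Whether the drought change differed between ovary and leaf was tested with all 8 libraries by subtracting the leaf change from the ovary change, for 20252 genes that averaged 1 FPKM or more in each table. Of these, 24.7% were called negative, meaning a more negative drought change in the ovary, and 23% positive. For GBSSIIa the difference was -3.12 ± 0.50 (SE, 8 libraries, limma adjusted p = 0.00248). For bt2 it was -1.57 ± 0.25 (SE, 8 libraries, limma adjusted p = 0.00252). Both calls held with each of the 8 libraries left out in turn, at adjusted p of up to 0.0128 for GBSSIIa and up to 0.0150 for bt2. AGPLS3 and sh2 each failed the filter in 1 tissue. With no filter the difference was -2.86 ± 0.21 for AGPLS3 (SE, 8 libraries, limma adjusted p = 9.63e-05). Its leaf values all lie below the pseudocount of 1 FPKM, which shrinks its leaf change to 0.34. This difference therefore mostly restates its ovary change of -2.53. For sh2 the fit with no filter gave -0.18 ± 0.22 (SE, 8 libraries, limma adjusted p = 0.521), with an interval of -0.70 to 0.33. All sh2 values in the ovary lie below the pseudocount of 1 FPKM, which shrinks its ovary change. In FPKM the drought level was 0.362 of the well watered level in the ovary and 0.714 in the leaf. The fit therefore cannot decide whether the sh2 change differed between tissues.

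**Figure D2:**
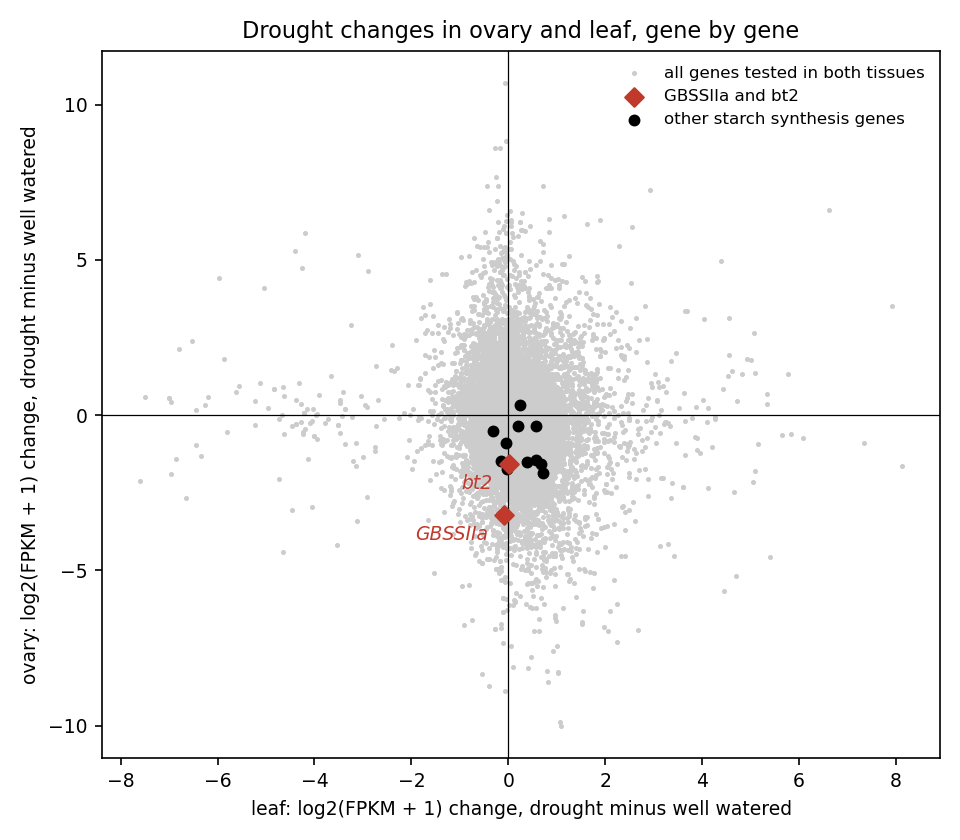
Change in log2(FPKM + 1), drought minus well watered, in the ovary (vertical axis) against the leaf meristem (horizontal axis) for each gene tested in both tissues; red diamonds are GBSSIIa and bt2, black points the other starch synthesis genes and grey points the remaining genes. GBSSIIa lies at -3.20 in the ovary and -0.08 in the leaf, and bt2 at -1.56 and 0.01.

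The order of the 4 genes by FPKM differed between the groups. In drought-stressed ovaries bt2 was highest, followed by GBSSIIa, AGPLS3 and sh2. GBSSIIa and AGPLS3 overlapped there, with 0.920 FPKM for the lower GBSSIIa library and 0.964 FPKM for the higher AGPLS3 library. In well watered ovaries the order was GBSSIIa, bt2, AGPLS3 and sh2. In both leaf groups it was GBSSIIa, bt2, sh2 and AGPLS3. The margin of GBSSIIa over bt2 was small in well watered ovary replicate 2, at 18.0 against 16.4 FPKM. Summed over the 4 genes, the level was 7.93 ± 2.42 FPKM in drought-stressed ovaries and 50.05 ± 8.26 FPKM in well watered ovaries (SD, n = 2 each). In the leaf the sum was 34.6 ± 6.05 FPKM under drought and 36.2 ± 8.08 FPKM when well watered (SD, n = 2 each).

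The level of AGPLS3 relative to bt2 and sh2 was lower in both drought-stressed ovary libraries than in both well watered ones, whereas the ratio of bt2 to sh2 overlapped between the conditions. Per library, AGPLS3 stood at 0.157 and 0.172 of the bt2 level under drought, against 0.581 and 0.551 in well watered ovaries. It remained above sh2, at 4.42 and 2.14 times the sh2 level under drought and at 13 and 12 times in well watered ovaries. The bt2 level was 28.1 and 12.5 times the sh2 level under drought, against 22.4 and 21.8 times in well watered ovaries. In the leaf sh2 was the higher of these large subunit genes, at 4.30 and 2.93 times the AGPLS3 level under drought and at 10.2 and 43.3 times in well watered plants. These leaf ratios rest on AGPLS3 values near the floor of the table. The ovary ratios to sh2 under drought rest on sh2 levels of 0.218 and 0.339 FPKM, above 4.37% and 6.01% of listed genes. All these ratios are given as a description, with no test.

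Among 3 genes named as small subunits, bt2 held a small share of the summed level. The other 2 are agpsl1 (GRMZM2G163437), the leaf small subunit gene by its name, and Agpsemzm (GRMZM2G106213), the embryo one. In drought-stressed ovaries bt2 made up 6.80% and 6.20% of their summed FPKM, against 11.5% and 15.0% in well watered ovaries. The share of Agpsemzm was 82.7% and 85.2% under drought, against 68.5% and 62.9% when well watered, and that of agpsl1 was 10.5% and 8.58% against 20.0% and 22.1%. In the leaf agpsl1 was the main gene, at 84.2% to 88.5% in all 4 libraries, and bt2 held between 7.53% and 8.10%. The reference gives the symbol of AGP2 (GRMZM2G027955), in another spelling, to Agpsemzm as well, and does not say which subunit AGP2 encodes. With AGP2 counted as well, bt2 held 5.10% and 4.43% under drought, against 7.33% and 8.70% in well watered ovaries, and 4.72% to 5.71% in the leaf. AGP2 itself then took 25% and 28.5% under drought and 36.3% and 42% in well watered ovaries, where it was the highest of the 4 in replicate 2. The depth behind these shares is unknown, and reads of such related genes may have been split between them. The summed level of the 3 genes was 79.3 ± 15.5 FPKM in drought-stressed ovaries and 131 ± 31.1 FPKM in well watered ovaries (SD, n = 2 each).

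**Figure D3:**
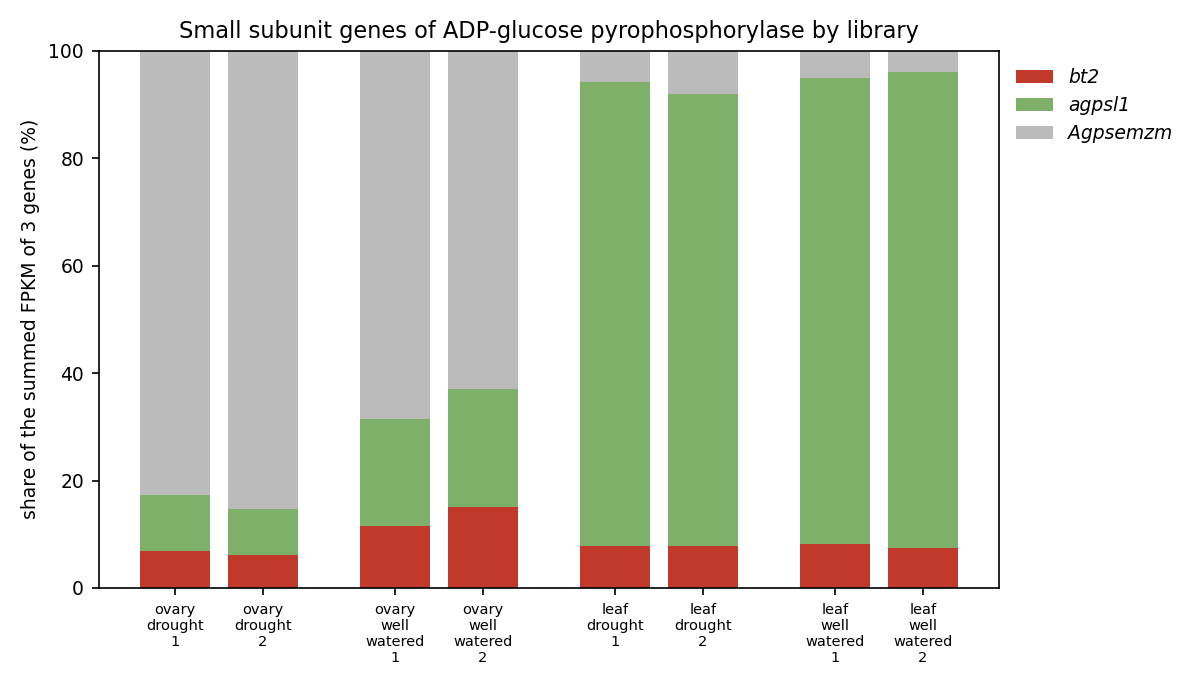
Share of bt2, agpsl1 and Agpsemzm in the summed FPKM of these 3 small subunit genes (vertical axis, percent), 1 bar per library. Agpsemzm takes 62.9% to 85.2% of the sum in the ovary and agpsl1 84.2% to 88.5% in the leaf, while bt2 lies between 6.20% and 15.0% in all 8 libraries.

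The wider starch synthesis list held 18 gene IDs matched by symbol, including the 4 genes, and 16 passed the filter in the ovary. Of these 12 were called lower under drought (75.0%, against 29.5% of all genes tested) and none higher, also none at an unadjusted p under 0.05. The median log2 change was -1.49, against -0.05 over all genes tested. Of the 16 genes, 2 (AGPLS3 and zpu1) had a drought mean below 1 FPKM. With single libraries left out between 6 and 10 list genes were called lower. There were 6 without well watered replicate 1, 6 without well watered replicate 2 and 7 without drought replicate 2. Without the 4 genes, 9 of 13 list genes were lower. The list was chosen with earlier results of these data known, so its counts are a description.

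By role, at least 1 gene of each enzyme class tested fell in the ovary, though not every gene of a class. Among ADP-glucose pyrophosphorylase genes, agpsl1 fell to 7.68 ± 2.58 FPKM under drought, against 27.5 ± 4.62 FPKM (SD, n = 2 each, log2 change -1.74, limma adjusted p = 0.00289). AGP2 fell by 1.51 on the log2 scale. Agpsemzm was not called, at 66.4 ± 11.6 FPKM under drought and 86.8 ± 25.6 FPKM when well watered (SD, n = 2 each, limma adjusted p = 0.262). The soluble starch synthase genes zSSIIa (GRMZM2G348551) and du1 (GRMZM2G141399), which elongate amylopectin chains, fell by 1.87 and 1.43. The endosperm granule-bound gene wx1 (GRMZM2G024993) did not pass the filter, with means of 0.620 FPKM under drought and 1.32 FPKM when well watered, and is not listed in the leaf table. In the ovary the mean of GBSSIIa was 2.62 times that of wx1 under drought and 17.2 times when well watered.

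Of the branching enzyme genes, which join amylopectin chains, ae1 (GRMZM2G032628) fell by 1.93 on the log2 scale. The 2 IDs that match sbe1 had log2 changes of -0.50 for GRMZM2G088737, which was called (limma adjusted p = 0.0448), and -0.35 for GRMZM2G088753, which was not. The log2 change of sbe3 (GRMZM2G005298) was -0.04, without a call. Of the debranching enzyme genes, which trim chains, zpu1 (GRMZM2G158043) fell by 1.58 and iso2 (GRMZM2G090905) by 0.90. The only positive estimate of the list was that of iso3 (GRMZM2G150796), at 0.34 (limma adjusted p = 0.193). The plastid starch phosphorylase gene pho1 (GRMZM2G074158) fell by 1.48. GBSSIIa and AGPLS3 had the 2 most negative log2 changes of the 16 genes, and bt2 ranked near the middle. Calls of agpsl1, du1, zpu1, pho1, iso2 and GRMZM2G088737 were lost with at least 1 ovary library left out. Those of AGP2, zSSIIa and ae1 held with each.

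**Figure D4:**
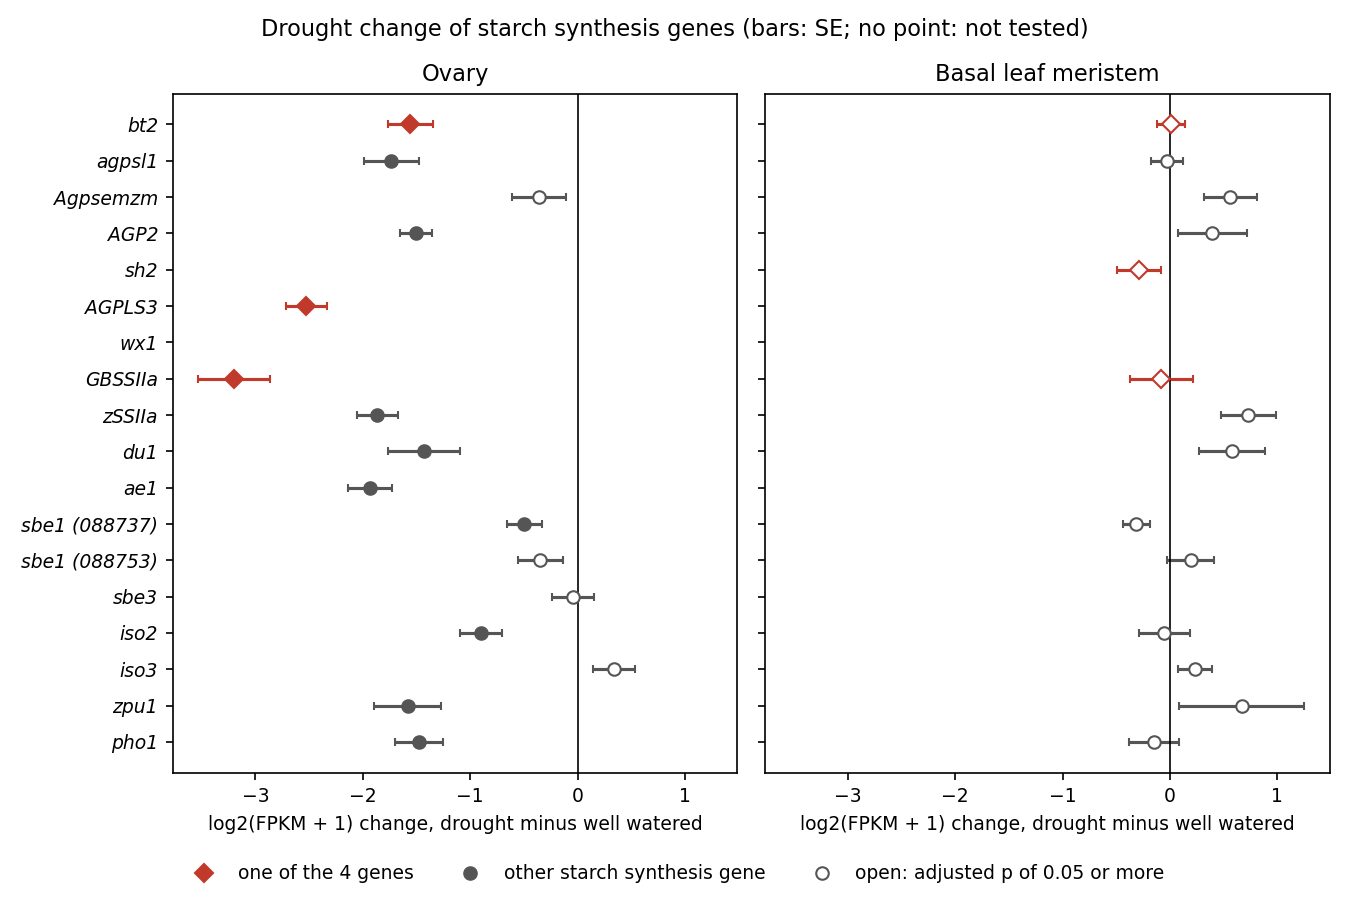
Change in log2(FPKM + 1), drought minus well watered (horizontal axis; bars are SE), of each starch synthesis gene tested in the ovary (left) and the leaf meristem (right). Red diamonds are the 4 genes of interest, filled symbols passed an adjusted p of 0.05, and genes without a point were not tested; 12 genes are filled in the ovary and none in the leaf.

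In the leaf 14 genes of the list were tested and limma called none in either direction, where 0.906% of all leaf genes tested were called lower and 2.35% higher, so a count of 0 among 14 is near the background. At an unadjusted p under 0.05, 1 was higher (zSSIIa, log2 change 0.73, limma adjusted p = 0.209) and none lower. The median log2 change of the list was 0.10, against -0.06 over all genes tested. In the difference between tissues 8 of 13 list genes were called negative (61.5%, against 24.7% of all genes) and none positive. None was positive at an unadjusted p under 0.05 either. Without the 4 genes, 6 of 11 were negative. Of the 8, du1 and zpu1 passed the leaf filter through their drought level alone, with well watered means of 0.922 and 0.641 FPKM. For zpu1 the leaf drought level was 1.98 ± 2.11 FPKM (SD, n = 2), and its leaf groups overlapped. In the ovary zpu1 passed through its well watered level alone, with a drought mean of 0.577 FPKM. Without leaf drought replicate 2 the 8 were 5. The starch breakdown list had 1 listed gene, Amy2 (GRMZM2G058310), also named BMY1 after beta-amylase. It fell in the ovary to 3.74 ± 0.226 FPKM under drought, against 11 ± 2.27 FPKM (SD, n = 2 each, log2 change -1.33, limma adjusted p = 0.00353). In the leaf Amy2 was at 43.1 ± 20.5 FPKM under drought and 35.7 ± 44.5 FPKM when well watered (SD, n = 2 each), without a call. Its tissue difference was not called, at -2.47 (limma adjusted p = 0.19).

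Marker lists of the ovary itself and of other tissues were read in the same ovary libraries. The summed level of the 8 leaf markers in the ovary was 79.6 and 83.8 FPKM under drought, against 325 and 602 FPKM in well watered ovaries, and lhcb3 was at 0 in both drought libraries. Of 7 leaf markers tested there, 3 fell and 1 rose, and of the 8 floral markers of the ovary 3 fell and 1 rose. Over all ovary genes tested 29.5% were called lower and 23.6% higher, so neither count sets its list apart. Of 11 endosperm markers 3 are listed in the ovary, pbf1, MRP1 and mn1, with a summed level of 36.1 and 37.0 FPKM under drought and 25.04 and 33.0 FPKM when well watered. MRP1 rose and mn1 fell, and mn1 passed the filter through its well watered level alone, with means of 0.200 FPKM under drought and 2.70 FPKM when well watered. The endosperm storage protein genes of that list are not listed. None of 3 pollen markers matched is listed. The part of these markers in the changes of the starch genes was not tested, and in whole tissue fewer cells of a type and less RNA per cell cannot be told apart.

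Across the 8 libraries, levels of GBSSIIa and bt2 on the log2(FPKM + 1) scale had a Pearson r of 0.973. The same measure was 0.780 for GBSSIIa with sh2 and 0.634 for bt2 with sh2. AGPLS3 followed the others less closely, with r of 0.389 with bt2, 0.197 with GBSSIIa and -0.399 with sh2. These values describe 4 groups of 2 libraries, which share tissue and watering, and carry no p.

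Among 1963 named genes averaging 1 FPKM or more in each table, the 3 with the pattern most like each gene were found by the same correlation over 8 libraries. For GBSSIIa they were rdr6 (GRMZM2G145201, r = 0.987), Mlo8 (GRMZM5G881803, r = 0.986) and the ribosomal protein gene rps27 (GRMZM2G066222, r = 0.984). All 3 were lowest in the drought-stressed ovary, where rps27 had 128 and 106 FPKM, against 322 and 338 FPKM in well watered ovaries. For bt2 they were decoy (GRMZM2G133050, r = 0.989), bth1 (GRMZM2G401934, r = 0.987) and ec2e (GRMZM2G100467, r = 0.986). For AGPLS3 they were CSD4 (GRMZM5G895313, r = 0.995), pk8-b (GRMZM2G026301, r = 0.991) and Rad51A2 (GRMZM2G084762, r = 0.990). CSD4 had 123 and 113 FPKM in drought-stressed ovaries, 448 and 401 FPKM in well watered ovaries and at most 94.0 FPKM in the leaf. For sh2 they were brk1 (GRMZM5G842058, r = 0.987), sat3 (GRMZM5G816110, r = 0.985) and pDCT2 (GRMZM2G086258, r = 0.980), all higher in every leaf library than in any ovary library. As the highest among 1963 genes, these r values are high by selection. By Spearman correlation 2 of the 3 were kept for GBSSIIa and 0 for AGPLS3, bt2 and sh2. With a pseudocount of 0.1 FPKM 3 were kept for GBSSIIa, 2 each for bt2 and sh2 and 0 for AGPLS3.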

How the data were processed

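The authors deposited FPKM per gene and library, with the 4 libraries of a tissue in a table of their own. The submitters' processing notes name CASAVA 1.8, TopHat 1.2.0 and Cufflinks 1.0.2 without a role. Settings, genome build, annotation, further scaling and the rule for listing genes are not stated in the sources used here. Coordinates are therefore left out. Sample titles gave the groups and replicate numbers. The series description counts 1 biological replicate per condition, the sample labels 2, and each library was used as a replicate. Gene IDs were matched to names through synonyms of the RefSeq annotation of B73: of 26380 ovary IDs 16218 matched, and of 25873 leaf IDs 16109. Limma 3.58.1 in R 4.3.3 (lmFit, eBayes with trend) was run on log2(FPKM + 1) for genes averaging 1 FPKM or more, with Benjamini-Hochberg adjustment over all genes tested at 0.05. The steps were tested on simulated data. Residual degrees of freedom were 2 per tissue and 4 over all 8 libraries, and the prior that limma added was 3.74 in the ovary fit, 2.42 in the leaf fit and 3.35 for the difference between tissues.

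The 4 genes and the lists were chosen with earlier results of these data known. Of 72 candidate symbols for starch synthesis, 24 are in the reference, and 1 match (sts1, a MADS-box gene) was removed by its identity. The 4 genes and all starch synthesis genes averaging 1 FPKM or more may be named, with the called genes of starch breakdown, the markers, and the 3 named genes most like each of the 4. wx1, below that mean, was named after its values were seen. Alternatives were pseudocounts of 0.1 and 0.01 FPKM, no filter other than a nonzero mean, a minimum mean of 5 FPKM, upper quartile scaling, quantile normalization, eBayes without trend, a joint fit, the replicate number as a block, each library left out in turn and, chosen after seeing the data, scaling to library sums without AC198871.3_FG002 and AC195320.3_FG003.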

Additional observations from a re-analysis of the deposited data

Results flagged for a closer look

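For 8 starch synthesis genes the drought change differed between ovary and leaf by the limma test of the difference. The ovary change was the more negative in each. Of these genes, du1 and zpu1 passed the leaf filter through their drought level alone. The ovary change minus the leaf change on the log2 scale was -3.12 for GBSSIIa, -2.59 for zSSIIa, -2.25 for zpu1, -2.01 for du1, -1.90 for AGP2, -1.71 for agpsl1, -1.57 for bt2 and -1.33 for pho1. The adjusted p of zpu1 was 0.0359 and reached 0.114 with a library left out. That of du1 reached 0.0561 and that of pho1 0.0542, and each of the other 5 stayed below 0.05 with each library left out in turn.

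For AGPLS3 and ae1 both drought libraries were below both well watered ones in the ovary and above them in the leaf. These patterns were shown by 41.1% of all genes listed in the ovary and 23.5% of those listed in the leaf. Each share is for 1 tissue by itself, and the share of genes with both patterns was not counted. In the leaf the drought means were 3.87 and 3.38 times the well watered means. The size of these ratios depends on well watered replicate 2, the lowest leaf library for both genes. Without it they were 2.62 for AGPLS3 and 2.10 for ae1. Without well watered replicate 1 they were 7.37 and 8.60. Each gene is below 1 FPKM on average in the leaf, so the difference was not tested at the filter used. With no filter the tissue difference of AGPLS3 was -2.86 on the log2 scale (limma adjusted p = 9.63e-05). The leaf change of AGPLS3 by itself was not called in that setting, at 0.34 (limma adjusted p = 0.230). Its leaf values are below the pseudocount of 1 FPKM, which shrinks that change, so the difference mostly restates the ovary change of -2.53.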

How the results depend on the processing

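GBSSIIa and AGPLS3 stayed called lower in the ovary under all 14 alternatives, with log2 changes of -3.91 to -2.80 and -3.50 to -2.37. bt2 stayed called under 12 of 14 and ranged from -1.78 to -1.33 with a library left out (adjusted p 0.0257 to 0.0511). In the leaf GBSSIIa, bt2 and sh2 were called under none of their alternatives, and at a mean of at least 5 FPKM sh2 was not tested. With libraries left out, the ovary calls numbered 2257 to 3791 higher (5614 with all) and 3543 to 4804 lower (7004 with all), with 6 to 10 of the starch list lower. The leaf calls numbered 0 to 1509 higher (527 with all) and 0 to 479 lower (203 with all). Both counts were 0 without either drought library, where limma had 1412 genes higher and 1114 lower at an unadjusted p under 0.05 without drought replicate 1, and 1185 and 615 without drought replicate 2. The calls of the tissue difference numbered 3100 to 4734 positive (4668 with all) and 3626 to 5292 negative (5010 with all), with 5 to 10 of the starch list negative (8 with all). That list count was 5 at a mean of at least 5 FPKM. The joint fit called 823 leaf genes higher and 367 lower. The labels do not say that replicate numbers pair samples, and same-numbered deviations correlated at 0.112 in the ovary and -0.175 in the leaf. With the replicate number as a block the leaf calls were 230 higher and 121 lower, and no call of the 4 genes changed. Quantile normalization moved the median change of all ovary genes to 0.06, against -0.05, and that of the tissue difference to 0.13, against 0.02. The tissue difference then had more positive than negative calls (5321 and 4526). The library-sum scaling moved its median to 0.14, with 5312 positive and 4463 negative calls. None of the 3 genes most like AGPLS3 was kept (0 of 3) with a pseudocount of 0.1 FPKM or by Spearman correlation, and 0 of 3 were kept by Spearman correlation for bt2 and for sh2. The cause of these shifts was not tested.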
